A study of Mus musculus with 192 samples.

Results

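The comparison described here sets mouse dendritic cells that received 3 microbial ligands together, LPS, cGAMP and CpGB, against cells that received each of the 3 possible pairs of them, so that each pair shows what the third ligand added. The members were chosen by their labels alone: the 3 libraries labelled LPS_cGAMP_CpGB (the triplet) and the 3 libraries each of LPS_cGAMP, LPS_CpGB and cGAMP_CpGB (the pairs), which makes 12 libraries, 4 of the 64 groups of 3 in the series. The 3 libraries each of LPS, cGAMP and CpGB alone and of unstimulated cells (Ctrl) were used beside them, so 24 libraries in 8 groups carry the results. All groups, Ctrl included, were grown from bone marrow of female C57BL/6J mice aged 6 to 8 weeks with the growth factor GM-CSF at 15 ng/mL, plated at 100000 cells per well and, per the labels, stimulated for 6 h. The labels name the cyclic dinucleotide as 3',3'-cGAMP and give no dose for any ligand, so equal doses of a ligand in its single, pair and triplet groups were taken from the shared name only. The labels do not say whether the replicates came from separate mice or cultures, so the p-values measure only the spread between these libraries, which may be technical.

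Each ligand is read by a different sensor. LPS, from the outer membrane of Gram-negative bacteria, is bound by CD14 and TLR4 and signals through the adaptors MyD88 and TRIF. cGAMP binds STING in the cytosol, which activates the kinase TBK1 and the transcription factor IRF3, while CpG DNA of class B is read in endosomes by TLR9, which signals through MyD88. MyD88 leads mainly to NF-kB and the genes of inflammatory cytokines; TRIF and STING also lead to IRF3 and to Ifnb1, the gene of interferon beta. Secreted interferon beta then acts through its receptor on many antiviral genes, and cells also make restraining factors such as interleukin 10 and SOCS3.

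The promoters of an interferon gene and of an interferon-stimulated gene show the motifs at which these factors are known to bind. Ifnb1 (chr4:88522025-88522794) and Rsad2 (chr12:26442743-26456452), which encodes the antiviral enzyme viperin, are shown because their levels moved in different directions below. Each line gives, 5′ to 3′ on the gene's strand, the 250 bases before the start of the gene as RefSeq has it on GRCm38.p6, at chr4:88522795-88523044 and at chr12:26456453-26456702, both on the minus strand. Capitals mark letters that fit the NF-kB motif GGGANNNNCC or the interferon regulatory factor (IRF) motif AANNGAAA on either strand.
Ifnb1: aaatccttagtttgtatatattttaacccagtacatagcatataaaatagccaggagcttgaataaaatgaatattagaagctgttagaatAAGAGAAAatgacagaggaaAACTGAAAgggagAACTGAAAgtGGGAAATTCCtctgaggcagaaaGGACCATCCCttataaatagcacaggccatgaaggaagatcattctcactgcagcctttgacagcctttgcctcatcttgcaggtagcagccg
Rsad2: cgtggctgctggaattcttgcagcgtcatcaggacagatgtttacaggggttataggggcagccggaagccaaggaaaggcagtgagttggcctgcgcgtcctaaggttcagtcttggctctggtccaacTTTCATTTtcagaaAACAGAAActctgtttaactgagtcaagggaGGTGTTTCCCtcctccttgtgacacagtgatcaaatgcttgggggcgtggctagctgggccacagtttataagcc
The Ifnb1 window held 3 IRF and 2 NF-kB matches, all between 84 and 159 bases before the start. The Rsad2 window held 2 IRF matches and 1 NF-kB match. Of 32851 promoter windows of this length, 21.3% held at least 1 IRF match and 17.6% at least 1 NF-kB match, so a match by itself is common and is a description only.

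The triplet libraries held 114535, 122399 and 147893 UMI counts, and the 12 libraries of the triplet and the pairs ranged from 114535 to 242927. Ctrl was the shallowest of the 8 groups, at 61823 to 89530. No libraries held identical values. Triplet replicate 2 stood apart: Malat1, a nuclear RNA, was at 1266 CPM there against 646 and 636 CPM in replicates 1 and 3 (here scaled to all counts of a library), and ribosomal protein genes took 3.03% of its counts against 3.46% and 3.42%. Counts of the additions are also given without it, as are the calls it ended among the described genes that were checked. Of 15 dendritic cell markers, 11 were detected in the triplet and their summed level was 4802 to 4918 CPM, against 4058 to 5169 CPM over the pairs; Cd209a and Itgae were at 0 in all 4 groups. Macrophage and monocyte markers were plainly present too, at a sum of 6879 to 8378 CPM in the triplet and 8030 to 9333 CPM in the pairs, with Cx3cr1 at 0. The neutrophil and progenitor sum was 989 to 1393 CPM in the triplet and 927 to 1425 CPM in the pairs, with Elane, Mpo, Prtn3 and Ctsg at 0 in the triplet. Of 8 markers of plasmacytoid dendritic cells, the cells best known for TLR9-driven interferon, 3 were detected in the triplet, at a sum of 663 to 856 CPM against 668 to 1027 CPM in the pairs, and Siglech, Ly6d, Klk1, Cox6a2 and Spib were at 0. Bst2, which the interferon response list also holds, made up 595 to 768 CPM of that sum in the triplet. The part of these cell types in the results below was not tested, and in bulk RNA fewer cells of a type and less RNA per cell cannot be told apart.

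Levels are given as CPM (counts-per-million) scaled between libraries with TMM factors. Changes are log2 fold changes ± standard error from edgeR's quasi-likelihood fit, and a gene was called when its p, with Benjamini-Hochberg adjustment across the 4720 tested genes, was under 0.05. The 3 comparisons share the triplet libraries, so a deviation of those libraries enters all 3.

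Ifnb1 was the 1 gene called higher in the triplet than in every pair (0.0212% of tested genes; 32 genes met this at unadjusted p). It was at 851, 739 and 1062 CPM in the triplet, 458, 334 and 436 CPM in cGAMP+CpGB, 128, 255 and 174 CPM in LPS+CpGB and 96.3, 132 and 140 CPM in LPS+cGAMP. The lowest triplet library lay above the highest library of any pair. Adding CpGB to LPS+cGAMP raised Ifnb1 by 2.81 ± 0.25 (7.02-fold, adjusted p = 5.482e-20), adding cGAMP to LPS+CpGB raised it by 2.22 ± 0.23 (4.67-fold, adjusted p = 5.724e-15), and adding LPS to cGAMP+CpGB raised it by 1.13 ± 0.21 (2.18-fold, adjusted p = 6.038e-05). Given alone, cGAMP took Ifnb1 from 11.97 ± 2.17 CPM in Ctrl to 196 ± 78.8 CPM (SD, n = 3; log2 fold change 3.93 ± 0.63, adjusted p = 5.725e-08). LPS alone was at 13.4 ± 11.8 CPM and CpGB alone at 22.5 ± 14.7 CPM (SD, n = 3), neither of which differed from Ctrl beyond the test (adjusted p = 0.858 and 0.682). Whether a ligand added more or less on the pair than alone could not be shown for Ifnb1: the differences in log2 fold change were 2.11 for CpGB, -1.71 for cGAMP and 0.80 for LPS, at adjusted p = 0.323, 0.174 and 0.732. Triplet replicate 3 is the highest, and without it the joint test against all 3 pairs had an adjusted p of 0.252; without cGAMP+CpGB replicate 2 it was 0.0584. Without triplet replicate 2 the joint call held, as the only such gene. Of the other type I interferon genes in the file, 11 Ifna and related genes had 0 counts in the triplet, which allows up to 7.80 CPM each (3 counts over the group), and only cGAMP+CpGB had any, 4 counts in 2 genes.

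Il10, the gene of the anti-inflammatory cytokine interleukin 10, had its highest level in the triplet. It was at 176, 183 and 212 CPM in the triplet, against 72.2, 51.0 and 65.8 CPM in LPS+CpGB, 26.3, 34.6 and 18.1 CPM in LPS+cGAMP and 8.49, 13.1 and 11.95 CPM in cGAMP+CpGB, and the triplet overlapped none of them. Alone, CpGB gave 16.2 ± 2.89 CPM and LPS 7.31 ± 1.71 CPM (SD, n = 3), while Ctrl and cGAMP had no Il10 count. That allows up to 13.6 CPM in Ctrl and 6.92 CPM in cGAMP (3 counts over the group). Against Ctrl, Il10 was not called for LPS or CpGB alone. Il10 rose by 2.89 ± 0.46 with CpGB (adjusted p = 7.999e-07), by 1.60 ± 0.38 with cGAMP (adjusted p = 0.004151) and by 3.98 ± 0.54 with LPS (adjusted p = 4.461e-09). The joint test against all 3 pairs had an adjusted p of 0.0559 and missed the threshold, and the cGAMP call was lost without LPS+CpGB replicate 2. These levels rest on 70 counts in the triplet and 5 to 32 counts in the pairs.

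Serpina3g, a serine protease inhibitor gene known to respond to interferon, was the 1 gene called lower in the triplet than in every pair (0.0212% of tested genes; 57 genes at unadjusted p). The triplet libraries were at 509, 452 and 531 CPM, against 884, 865 and 1164 CPM in LPS+cGAMP, 986, 1406 and 1410 CPM in LPS+CpGB and 1027, 1151 and 1081 CPM in cGAMP+CpGB. Every single ligand had raised it over Ctrl (84.8 ± 23.6 CPM; SD, n = 3), LPS to 1417 ± 177 CPM and cGAMP to 1388 ± 68.4 CPM. It fell by 0.98 ± 0.22 on the log2 scale with CpGB added, by 1.36 ± 0.22 with cGAMP added and by 1.12 ± 0.22 with LPS added. The joint adjusted p was 0.0426. It was above 0.05 without triplet replicate 1 (0.191), 2 (0.543) or 3 (0.252), without LPS+cGAMP replicate 1 (0.052) or 3 (1) and without cGAMP+CpGB replicate 2 (0.0584), and also with RLE factors (0.0633) or library size alone (0.0512) in place of TMM.

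**Figure D1:**
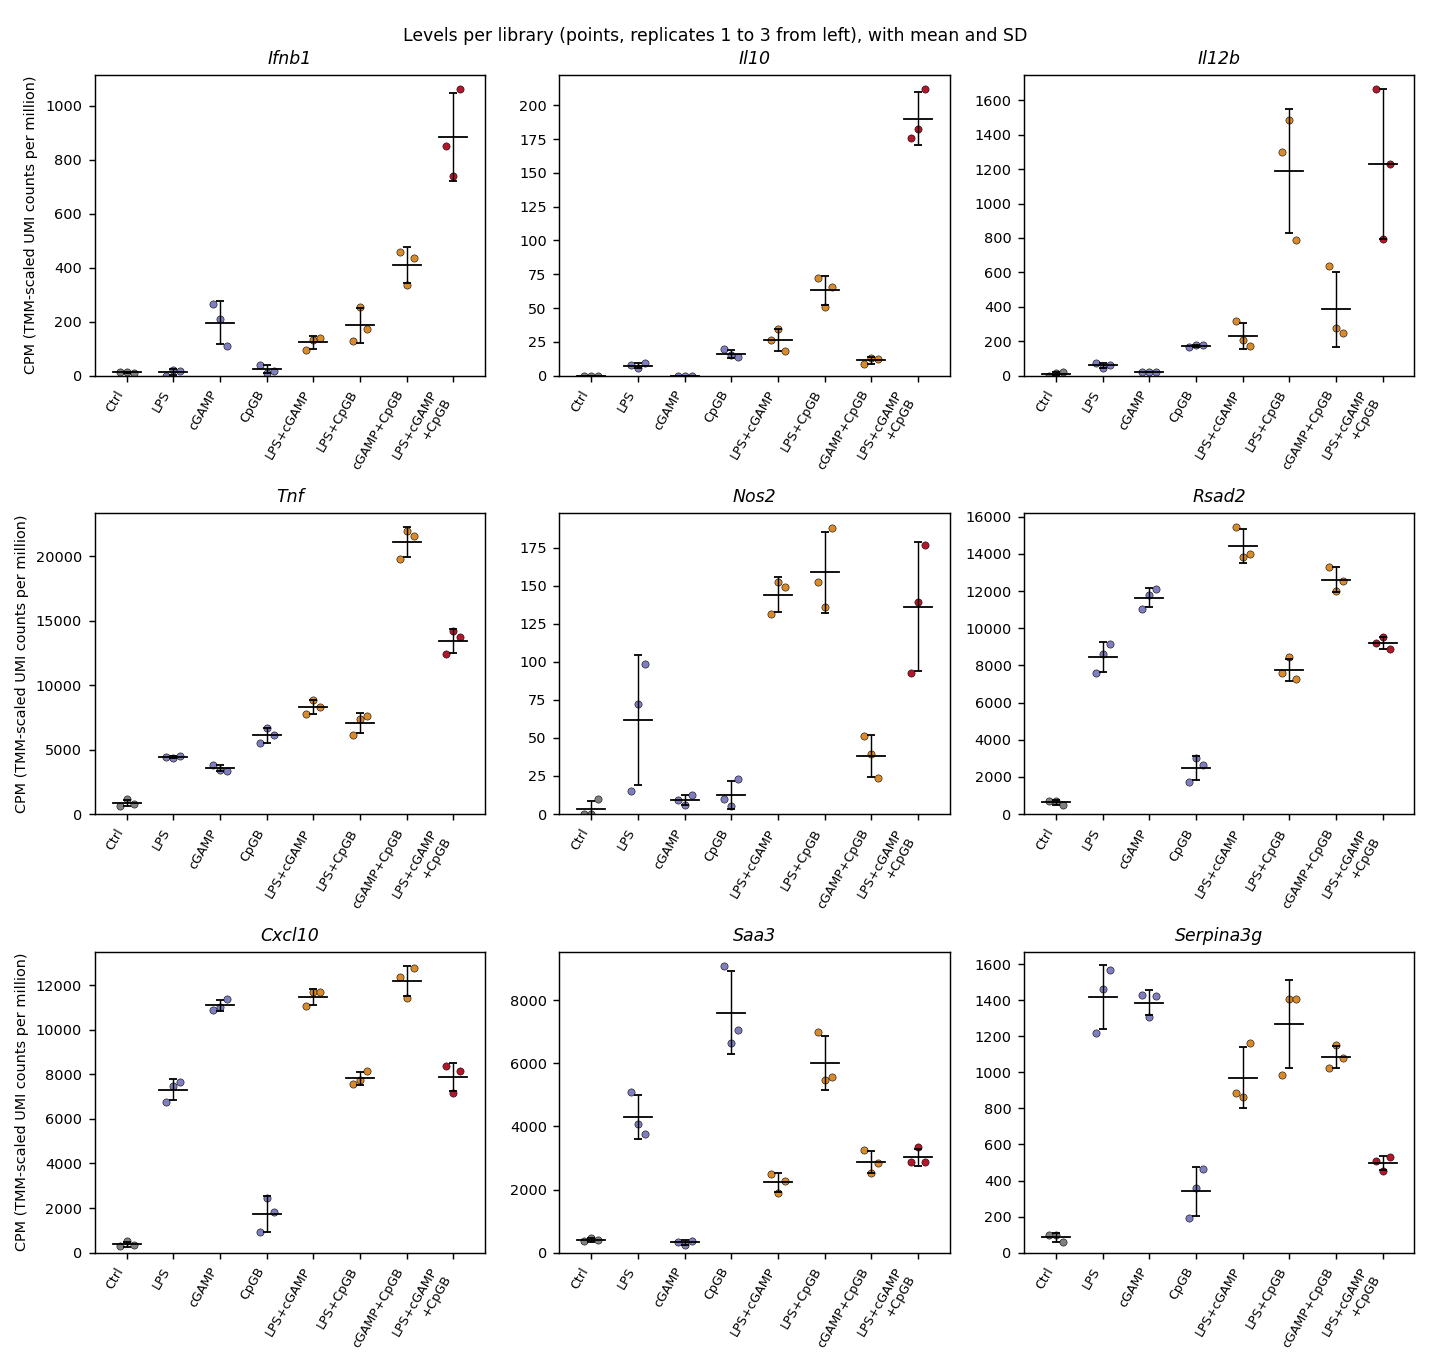
Level of 9 genes in CPM (linear axes from 0) in the 8 groups; points are the 3 libraries of a group, with the group mean and SD. Ifnb1 and Il10 are highest in the triplet, Tnf is highest in cGAMP+CpGB, and Serpina3g falls from 865 CPM or more in every pair library to 531 CPM or less in the triplet.

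Adding CpGB to LPS+cGAMP raised genes of inflammatory cytokines and of feedback on NF-kB, and lowered 4 of 32 interferon response genes. It changed 77 of 4720 genes (1.63%), 36 higher (0.763%) and 41 lower (0.869%). Il12b, which encodes a subunit shared by interleukins 12 and 23, was at 315, 208 and 172 CPM in LPS+cGAMP and at 1666, 791 and 1232 CPM in the triplet, without overlap (2.47 ± 0.30, adjusted p = 3.011e-11). Tnf, the gene of tumour necrosis factor, was at 7737, 8835 and 8277 CPM in the pair and at 12370, 14180 and 13750 CPM in the triplet (0.70 ± 0.15, adjusted p = 0.001512). Ebi3, a subunit of interleukins 27 and 35, rose by 1.17 ± 0.26 (adjusted p = 0.001866). Of the 16 tested inflammatory cytokine genes edgeR called 6 higher and 0 lower (11 at unadjusted p), and DESeq2 7 higher and 0 lower; the others that edgeR called were Il10, Il1rn and Il1a. Il6 was at 3501, 3203 and 2974 CPM against 4460, 3470 and 4381 CPM and was not called (0.35, adjusted p = 0.177). The costimulatory receptor gene Cd40 was at 2206, 2117 and 1909 CPM in the pair and 3433, 2870 and 3121 CPM in the triplet (0.60 ± 0.14, adjusted p = 0.002425). It was the 1 gene called among 11 tested genes of dendritic cell maturation, by edgeR and by DESeq2, beside 0.763% of all genes higher. Of the 11, 4 lay above 0 and 7 below, with a median of -0.175 beside -0.07 over all genes.

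The NF-kB and feedback list had 5 of 23 genes higher and none lower with CpGB added, beside 0.763% of all genes higher. Dusp1, a phosphatase that switches off MAP kinases, was at 105, 90.0 and 81.2 CPM in LPS+cGAMP and at 352, 444 and 354 CPM in the triplet (2.08 ± 0.30, adjusted p = 2.496e-08). Socs3, which blocks signalling by cytokine receptors, was at 403, 401 and 361 CPM against 916, 1044 and 1026 CPM (1.37 ± 0.17, adjusted p = 3.269e-11). In both genes every triplet library lay well above the highest pair library. Nfkbiz, a nuclear cofactor of NF-kB for late genes such as Il12b, was at 175, 221 and 167 CPM against 444, 470 and 496 CPM (1.34 ± 0.21, adjusted p = 7.999e-07). Bcl3, a related nuclear IkB protein, and Dusp2 were the other called members, at 1.73 ± 0.44 and 1.29. The chemokine gene Ccl3 rose from 8113, 8759 and 8747 CPM to 14580, 15050 and 14790 CPM (0.79 ± 0.14, adjusted p = 1.451e-05), as the 1 gene edgeR called among 17 chemokines, with 7 at unadjusted p, where DESeq2 called 4 higher.

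On the lower side, 4 of the 32 interferon response genes fell with CpGB added and none rose, beside 0.869% of all genes lower. Rsad2 was at 15450, 13810 and 14010 CPM in LPS+cGAMP and at 9189, 9522 and 8904 CPM in the triplet (-0.65 ± 0.15, adjusted p = 0.002437). Cmpk2, its neighbour on chromosome 12 and a nucleotide kinase of the antiviral response, was at 6135, 6822 and 6409 CPM against 3748, 4113 and 3773 CPM (-0.74 ± 0.15, adjusted p = 0.0002797). Ifit3 and Ifit2, which encode proteins that bind foreign RNA, were the other called members, at -0.68 and -0.58. The list's median was -0.17 beside -0.07 over all tested genes, with 6 members above 0 and 26 below. Cxcl10, an interferon-induced chemokine, was at 11060, 11710 and 11680 CPM against 8374, 7166 and 8133 CPM, which do not overlap, but missed the threshold (-0.54, adjusted p = 0.05999). Clec4e, the gene of the receptor Mincle, was at 3457, 3709 and 3430 CPM against 2138, 2461 and 2095 CPM (-0.66 ± 0.11, adjusted p = 3.026e-06). Irg1, which makes itaconate, and Cd14, the LPS coreceptor, fell as well, by 0.47 and 0.64 on the log2 scale. A larger change was that of Sgk1, a kinase induced by serum and glucocorticoids, from 1041, 913 and 939 CPM to 241, 391 and 326 CPM (-1.58 ± 0.19, adjusted p = 1.042e-11). Ralgds, an exchange factor of Ral GTPases, fell from 184, 201 and 140 CPM to 74.0, 60.9 and 28.3 CPM (-1.69 ± 0.34, adjusted p = 0.0002948). Gm13889 had the highest fold among the genes named by size, on 24 counts in the triplet and 2 in the pair (15.8-fold, 95% exact counting interval 3.92 to 138), and Sfmbt1 the lowest, on 2 and 28 counts (10.7-fold lower, interval 2.69 to 92.2). The counts depended on single libraries: without LPS+cGAMP replicate 3, 22 genes were higher and 23 lower, and the number lower was 24 without triplet replicate 1 and 20 without triplet replicate 3. Bcl3, Cd14, Cd40, Ebi3, Gm13889, Ifit2, Ifit3, Irg1 and Sfmbt1 each lost the call without at least 1 library. Ifit2 and Ifit3 each lost it without any 1 of 5 libraries, and Ifit2 with RLE factors too. The calls of Clec4e, Dusp2, Il1rn and Il1a were not checked in this way. Scaled by library size alone the split was 43 higher and 25 lower, or 44 and 24 with RLE factors.

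Adding cGAMP to LPS+CpGB raised the chemokine genes Ccl2, Ccl7 and Cxcl1, the TNF family gene Tnfsf15 and the interferon response genes Oasl1 and Isg15, and lowered Saa3, Cfb and C3 among others. It changed 88 genes (1.86%), 56 higher (1.19%) and 32 lower (0.678%). Tnfsf15, which encodes the cytokine TL1A, was at 762, 833 and 682 CPM in LPS+CpGB and at 2387, 2791 and 2576 CPM in the triplet, far apart (1.77 ± 0.20, adjusted p = 5.984e-13). Tnf was at 6143, 7376 and 7564 CPM in the pair and lay above it in all 3 triplet libraries (0.93 ± 0.15, adjusted p = 2.542e-06). Il6, at 3007, 2971 and 3009 CPM in the pair, passed narrowly (0.45 ± 0.13, adjusted p = 0.0396). Of the 16 cytokine genes 5 rose, with Il10 and Inhba, the gene of activin A (1.04 ± 0.24), beside those named, and Il18 fell (-1.19, adjusted p = 0.03888) by edgeR's test; DESeq2 called 6 of the list higher and 0 lower. Il12b was at 1299, 1485 and 790 CPM in the pair, overlapping the triplet (0.05, adjusted p = 0.9696).

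Among 17 chemokine genes edgeR called 3 higher and 0 lower with cGAMP added (8 at unadjusted p), beside 1.19% and 0.678% of all genes, and DESeq2 called 6 higher and 0 lower. Ccl2, which draws monocytes through the receptor CCR2, was at 417, 465 and 395 CPM in LPS+CpGB and 1166, 939 and 1338 CPM in the triplet (1.44 ± 0.21, adjusted p = 4.743e-08). Its neighbour on chromosome 11, Ccl7, rose by 1.40 ± 0.32, and the neutrophil chemokine gene Cxcl1 went from 425, 340 and 362 CPM to 1009, 557 and 842 CPM (1.11 ± 0.22, adjusted p = 0.0003527). Cxcl10 and Ccl5, at 0.01 and 0.03, were not called. Of the 32 interferon response genes edgeR called 2 higher and 0 lower (7 at unadjusted p), where DESeq2 called 4 higher and 1 lower, and the list's median was -0.08 beside -0.03 over all genes. Oasl1, an RNA-binding member of the oligoadenylate synthetase family, was at 1179, 1531 and 1523 CPM against 2998, 3331 and 3334 CPM (1.18 ± 0.18, adjusted p = 5.758e-07), and Isg15, a ubiquitin-like modifier, rose by 0.51 (adjusted p = 0.02431). Ifit1 and Rsad2 were not called. Zfp36l2, which encodes a protein that destabilises mRNA, was at 24.1, 39.7 and 18.8 CPM in the pair and 176, 157 and 156 CPM in the triplet (2.54 ± 0.43, adjusted p = 6.426e-06). Its level in Ctrl was 300.4 CPM, so the triplet lay between the pair and the unstimulated cells. Plagl1, a zinc finger gene, had no count in LPS+CpGB and 27 in the triplet (55.5, 34.8 and 120 CPM), at least 12.7-fold higher with 3 counts over the group as the limit for the pair. The G1/S cyclin gene Ccne1 rose from 64.2, 56.7 and 32.9 CPM to 250, 209 and 163 CPM (2.04 ± 0.42, adjusted p = 0.0005317).

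Saa3, an acute phase protein gene, was at 6993, 5488 and 5562 CPM in LPS+CpGB and at 2859, 3339 and 2867 CPM in the triplet (-0.99 ± 0.17, adjusted p = 8.605e-06), and cGAMP alone had left it at 321 CPM beside 402 CPM in Ctrl. The complement genes Cfb and C3 fell too, Cfb from 2029, 1877 and 1937 CPM to 1332, 1244 and 1147 CPM (-0.65 ± 0.13, adjusted p = 0.0004502) and C3 by 0.60. Serpina3f, a relative of Serpina3g in the same cluster, was at 257, 284 and 212 CPM against 74.0, 87.0 and 84.9 CPM (-1.59 ± 0.33, adjusted p = 0.0005317); reads of such close relatives may have been split by the authors' counting. Batf2, a transcription factor induced by interferon, fell by 1.51 on the log2 scale, and Icam1, an adhesion molecule, by 0.74. Icam1 was the 1 gene edgeR called among the 11 dendritic cell maturation genes, beside 0.678% of all genes lower. Of the 11, 7 lay above 0 and 4 below, and DESeq2 called 1 higher and 1 lower. The NF-kB and feedback list had 0 of 23 genes called by edgeR with cGAMP added, 5 at unadjusted p, and DESeq2 called 1. Beside 1.86% of all genes called, few or no calls would be expected in a list of this size. The number of genes called higher was 35 without LPS+CpGB replicate 3, and the number lower was 20 without LPS+CpGB replicate 2, 14 without replicate 3 of that group, 21 without triplet replicate 2 and 18 without triplet replicate 3. Of the genes named for cGAMP that were checked, Ccl7, Icam1, Il10, Il18, Il6, Inhba and Isg15 each lost the call without at least 1 library. The calls of Saa3, Cfb and C3 were not checked in this way.

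**Figure D2:**
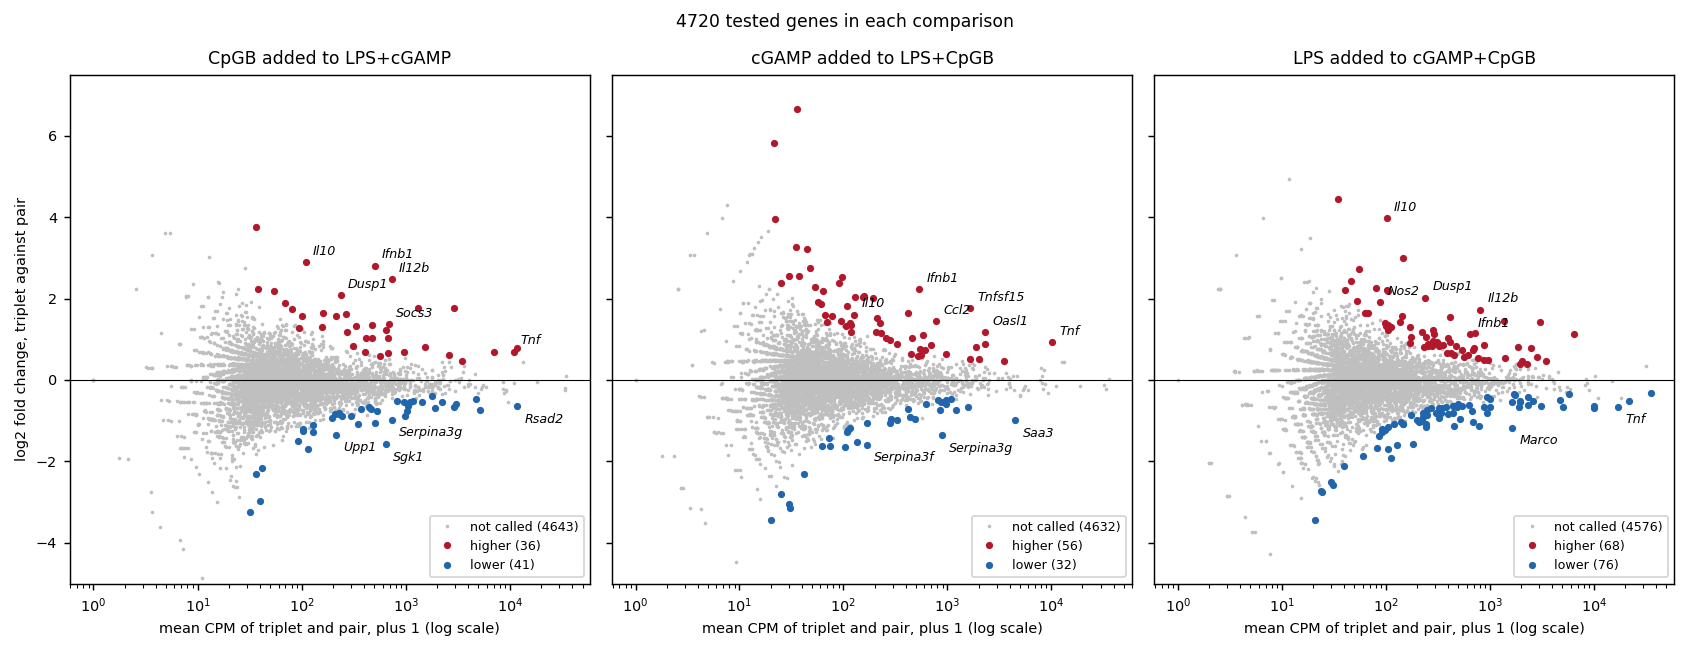
Log2 fold change of the triplet against each pair (y axis) over the mean CPM of the 2 groups plus 1 (x axis, log scale) for 4720 tested genes; red points were called higher and blue points lower. The called genes are 77, 88 and 144 for CpGB, cGAMP and LPS added, and Ifnb1 lies among the red points of each panel.

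Adding LPS to cGAMP+CpGB raised Il10, Il12b, Il1rn and Nos2 and lowered Tnf, Cxcl10 and the scavenger receptor gene Marco. With 144 genes called (3.05%), 68 higher (1.44%) and 76 lower (1.61%), it changed more genes than either other addition, a count for which no test between the additions was made. Tnf was at 19800, 21940 and 21580 CPM in cGAMP+CpGB and at 12370, 14180 and 13750 CPM in the triplet (-0.65 ± 0.15, adjusted p = 0.002123). Thus the triplet's Tnf level lay above LPS+cGAMP and LPS+CpGB and below cGAMP+CpGB, with no library of the triplet overlapping any pair. Il12b went the other way, from 637, 275 and 245 CPM to the triplet's 1666, 791 and 1232 CPM (1.73 ± 0.28, adjusted p = 2.994e-06). Il1rn, which encodes the antagonist of the interleukin 1 receptor, was at 4219, 3622 and 4194 CPM against 8300, 9079 and 8989 CPM (1.13 ± 0.15, adjusted p = 4.461e-09). Inhba was at 238, 242 and 155 CPM against 648, 557 and 630 CPM (1.55 ± 0.26, adjusted p = 5.425e-06). Of the 16 cytokine genes edgeR called 6 higher, with Ebi3 and Il1a beside Il10 and those named, and 1 lower, Tnf, beside 1.44% and 1.61% of all genes; DESeq2 called 5 higher and 1 lower.

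Nos2, the inducible nitric oxide synthase gene, was at 50.9, 39.2 and 23.9 CPM in cGAMP+CpGB and at 92.5, 139 and 177 CPM in the triplet (1.91 ± 0.46, adjusted p = 0.004161). Its triplet level was no higher than in LPS+cGAMP (144 ± 11.3 CPM) or LPS+CpGB (159 ± 26.6 CPM; SD, n = 3), so the 3 groups with LPS and another ligand stood together. Dusp1 and Socs3 rose again, Dusp1 from 84.9, 91.5 and 102 CPM (2.02 ± 0.30, adjusted p = 1.012e-07) and Socs3 from 425, 497 and 412 CPM (1.16 ± 0.17, adjusted p = 3.39e-08). Tnip3 and Nfkb2 also rose, and Atf3, a stress-induced repressor, fell by 0.61 on the log2 scale. Of the 23 NF-kB and feedback genes edgeR thus called 4 higher and 1 lower, beside 1.44% and 1.61% of all genes, and DESeq2 called 6 higher and 1 lower. U90926, a gene of little known function, was at 34.0, 39.2 and 23.9 CPM against 222, 322 and 241 CPM (3.00 ± 0.41, adjusted p = 4.461e-09). Cd40 was at 1630, 1824 and 2019 CPM in the pair, below every triplet library (0.78 ± 0.14, adjusted p = 1.631e-05). It was again the 1 gene edgeR called among the 11 dendritic cell maturation genes, beside 1.44% of all genes higher. Of the 11, 6 lay above 0 and 5 below, and DESeq2 called 2 higher.

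Of the interferon response genes, Cmpk2 fell with LPS from 5934, 6826 and 5771 CPM (-0.67 ± 0.15, adjusted p = 0.001082), with Ifit3 and the RNA sensor gene Ifih1, and Isg15 rose, so edgeR called 3 of 32 lower and 1 higher (8 at unadjusted p), beside 1.61% and 1.44% of all genes, and DESeq2 called 5 lower and 1 higher. The chemokine genes Cxcl10, at 12370, 11450 and 12780 CPM in the pair (-0.63 ± 0.16, adjusted p = 0.01064), and Cxcl2, at 3744, 3727 and 4056 CPM against 2674, 2070 and 2605 CPM (-0.65, adjusted p = 0.01237), both fell. The Cxcl10 call was lost with DESeq2. Of 17 chemokine genes edgeR called 0 higher and 2 lower (8 at unadjusted p), beside 1.44% and 1.61% of all genes. DESeq2 called 2 higher and 3 lower, and 8 of the 17 lay above 0 and 9 below. Marco, a scavenger receptor that binds bacteria, was at 2131, 2151 and 2563 CPM against 1055, 939 and 1040 CPM (-1.18 ± 0.20, adjusted p = 4.001e-06), although LPS alone had raised it over Ctrl, from 337 to 1456 ± 126 CPM (SD, n = 3). Of 11 tested macrophage and monocyte markers 2 fell with LPS, C1qc and Csf1r, beside 1.61% of all genes lower; 4 of the 11 lay above 0 and 7 below, with a median of -0.08 beside -0.04 over all genes. The markers' summed level was 6879 to 8378 CPM in the triplet and 8030 to 9006 CPM in cGAMP+CpGB, and the part of such cells in the fall of Marco was not tested. The number of genes higher was 42 without triplet replicate 3 and 37 without cGAMP+CpGB replicate 3; the number lower was 47 without triplet replicate 1, 41 without triplet replicate 3 and 42 without cGAMP+CpGB replicate 3. Atf3, Cxcl10, Cxcl2, Ifih1, Ifit3, Isg15, Nos2 and Tnip3 each lost the call without at least 1 library. The calls of Ebi3, Il1a, Nfkb2, C1qc and Csf1r were not checked in this way. The split became 98 higher and 51 lower with library size alone or 88 and 58 with RLE factors.

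Left without triplet replicate 2, the library that stood apart, the counts were 27 higher and 28 lower for CpGB, 43 and 21 for cGAMP and 52 and 55 for LPS, and 30 of the 106 calls of named genes in these comparisons were lost. Among the described genes whose calls were checked, for CpGB these were Cd14 (-0.59, adjusted p = 0.065), Ifit2 (-0.60, 0.078), Ifit3 (-0.68, 0.0779) and Abca1 (-1.07, 0.0931), and for cGAMP Isg15 (0.46, 0.144), Il18 (-1.09, 0.162) and Psme2 (-0.36, 0.282). For LPS they were Cxcl10 (-0.56, 0.0807), Cxcl2 (-0.54, 0.122), Ifih1 (-0.47, 0.0933), Ifit3 (-0.67, 0.0599), Isg15 (0.40, 0.173), Ctsl (0.50, 0.0689) and Ctsd (-0.33, 0.0692).

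Several gene groups had few or no called genes when the third ligand was added. Over all genes 1.63%, 1.86% and 3.05% were called for CpGB, cGAMP and LPS. At such shares few or no calls would be expected in lists of this size, so 0 or 1 call is a description only. The MHC class II list had 0 of 9 genes called in any of the 3 additions by edgeR, with 2, 2 and 1 at unadjusted p for CpGB, cGAMP and LPS, and 0, 0 and 1 called by DESeq2. Glycolysis and hypoxia genes had 0 of 20 called, with 0, 0 and 2 at unadjusted p and 0 called by DESeq2, and their medians were -0.27, 0.08 and -0.11. Cell death and survival genes had 0 of 17 called, with 3, 4 and 4 at unadjusted p and 0 by DESeq2. In the MHC class I list 1 of 15 was called, the proteasome activator Psme2, lower with cGAMP, a call lost under 11 of 22 settings, among them RLE factors and 5 libraries left out in turn. Of the 17 cholesterol genes 2 fell with CpGB, the sterol exporters Abca1 (-1.11) and Abcg1 (-0.88), and 1 fell with cGAMP, Ch25h, which makes 25-hydroxycholesterol (-0.95). That list's medians were -0.63 and -0.65 beside all-gene medians of -0.07 and -0.03, and each of these 3 calls was lost without at least 1 library. Lysosomal genes had 0 of 25 called with CpGB (4 at unadjusted p, 0 by DESeq2) and with cGAMP (5, and 1 by DESeq2), while with LPS the cathepsin gene Ctsl rose and 3 genes, Marco, Ctsz and Ctsd, fell. The Ctsl call was lost without any 1 of the 6 libraries compared, and the Ctsz and Ctsd calls without any 1 of 4 of them; Ctsz was lost with DESeq2 as well.

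**Figure D3:**
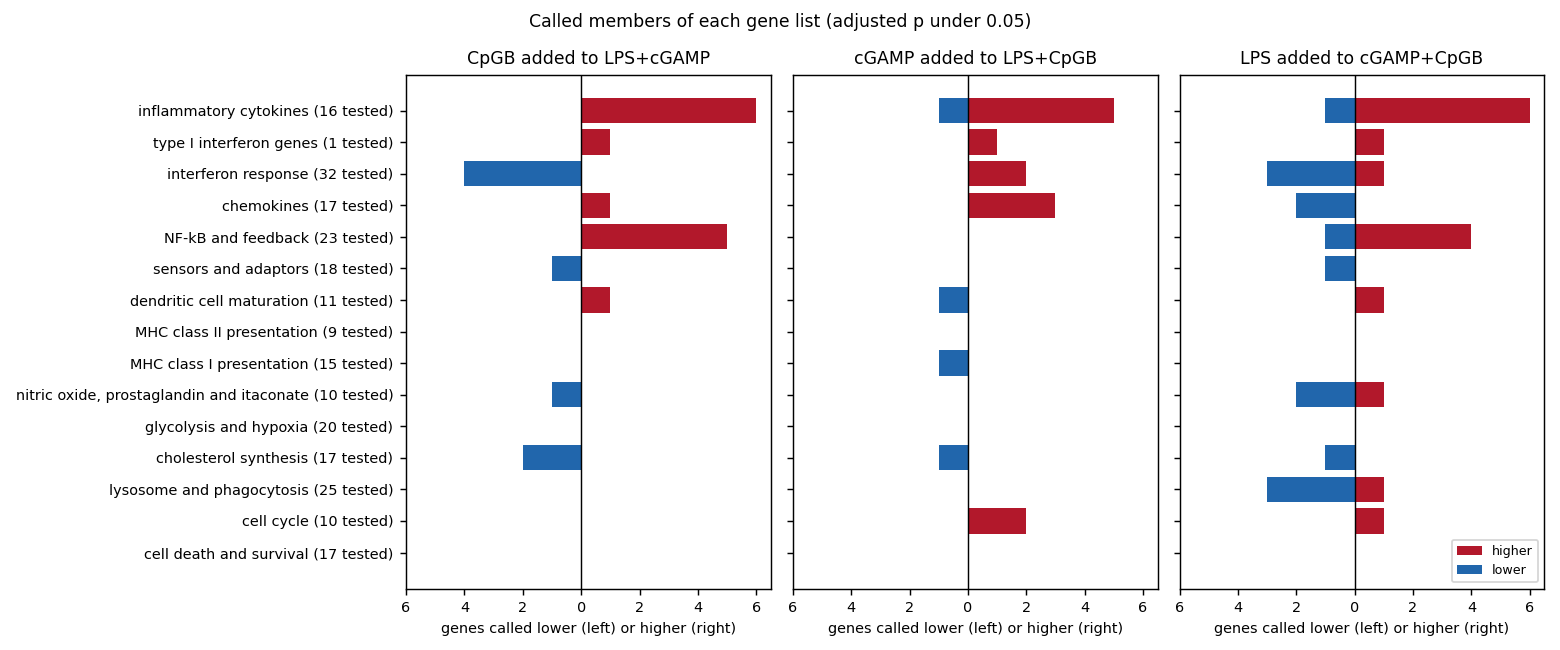
Number of called genes in each gene list, higher to the right in red and lower to the left in blue, for CpGB, cGAMP and LPS added to the pair of the other ligands; the number tested in each list is in its label. Cytokine genes have the highest bars, 6 higher with CpGB, 5 higher and 1 lower with cGAMP and 6 higher and 1 lower with LPS.

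The next question was how each ligand's effect on the pair compared with its effect alone. LPS alone changed 1415 of 4720 genes against Ctrl (30.0%), cGAMP 1023 (21.7%) and CpGB 1013 (21.5%), where the additions to a pair changed 144, 88 and 77. CpGB alone raised 508 genes by 2-fold or more (10.8%), with a median log2 fold change of 2.00; added to LPS+cGAMP the same genes had a median of -0.11 (all genes -0.07), with 20 called higher (3.94%, beside 0.763% of all genes) and 18 lower (beside 0.869%). The 551 genes raised so by cGAMP alone (11.7%; median 2.14) had a median of -0.05 when it was added to LPS+CpGB (all genes -0.03), with 23 higher (4.17%, beside 1.19%) and 14 lower (beside 0.678%). The 690 genes raised so by LPS alone (14.6%; median 2.14) had a median of -0.06 on cGAMP+CpGB (all genes -0.04), with 36 higher (5.22%, beside 1.44%) and 28 lower (beside 1.61%). The single-ligand and the triplet comparisons share no library. These genes were chosen by their value alone, which by itself makes that value high. Conversely, 55.6% of the 36 genes raised by CpGB on the pair were also among those raised by it alone, as were 41.1% of 56 for cGAMP and 52.9% of 68 for LPS.

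The difference between both effects was tested as an interaction over all genes. It was called for 640 genes for CpGB (13.6%), 147 with a higher effect on the pair (3.11%) and 493 with a lower one (10.4%). For cGAMP it was called for 616 genes (13.1%), 132 higher (2.80%) and 484 lower (10.3%), and for LPS for 879 genes (18.6%), 228 higher (4.83%) and 651 lower (13.8%). All 32 interferon response genes were called with a lower effect on the pair for each ligand, with median differences of -2.93 for CpGB, -3.62 for cGAMP and -3.75 for LPS. They had been called higher with every ligand alone, 32 of 32, beside 12.5% of all genes for CpGB, 13.5% for cGAMP and 17.1% for LPS. Cmpk2 rose by 4.33 ± 0.23 with LPS alone and fell by 0.67 ± 0.15 when LPS was added to cGAMP+CpGB, a difference of -5.003 ± 0.28 (adjusted p = 1.068e-41). Scaling moved these counts: the median difference of all genes was -0.06, 0.00 and -0.04 for CpGB, cGAMP and LPS with TMM factors, 0.10, 0.15 and 0.16 with RLE factors and 0.21, 0.25 and 0.34 with library size alone. With library size alone the calls were 291 higher and 382 lower for CpGB, 270 and 393 for cGAMP and 518 and 488 for LPS, and with RLE factors 220 and 412, 205 and 424, and 385 and 558.

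Some genes went in opposite directions alone and on the pair. Of those raised 2-fold or more alone, 18 fell when CpGB was added to the pair, 14 when cGAMP was and 28 when LPS was. These genes were chosen by the calls on both sides, so the called difference between the effects of each of them follows from that choice and is no further support. Clec4e rose by 2.67 with CpGB alone and fell by 0.66 on the pair, and Irg1 rose by 2.66 and fell by 0.47. Gbp4, a guanylate-binding protein gene, rose by 4.63 with cGAMP alone, to 284, 321 and 313 CPM, and fell by 0.96 when cGAMP was added to LPS+CpGB, from 690, 624 and 635 CPM to 305, 331 and 354 CPM. Cxcl10 rose by 4.25 with LPS alone and fell by 0.63 on the pair. Lgals3, the gene of galectin 3, was the 1 gene with the reverse pattern among those lowered 2-fold or more alone (9.60% of genes for LPS): LPS alone lowered it from 3975, 4191 and 3869 CPM to 1504, 1773 and 1812 CPM (-1.23), and LPS added to cGAMP+CpGB raised it from 1851, 2125 and 1894 CPM to 2415, 2713 and 2619 CPM (0.40, difference 1.63, adjusted p = 1.162e-16).

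**Figure D4:**
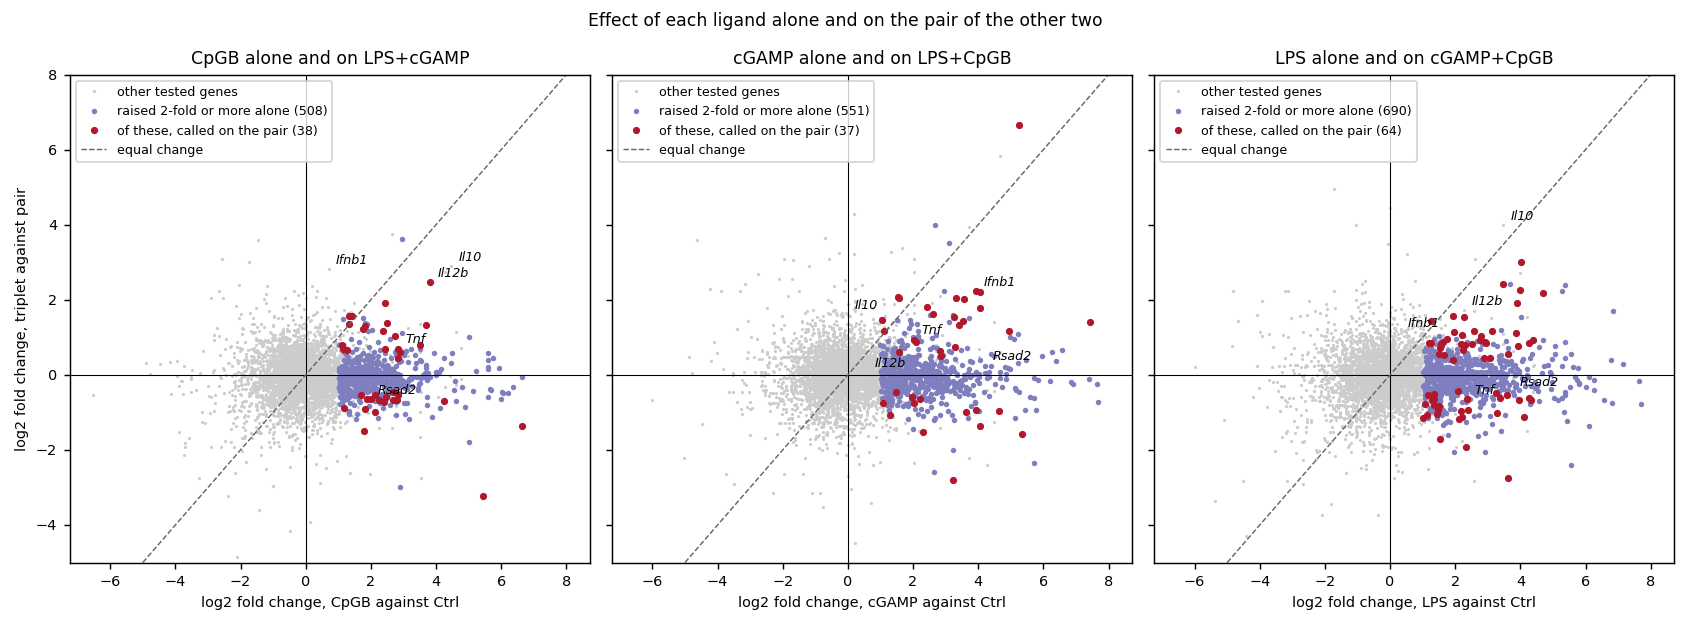
Log2 fold change of each ligand against Ctrl (x axis) and of the triplet against the pair without that ligand (y axis) for the tested genes; violet points were raised 2-fold or more by the ligand alone, red points are those of them also called on the pair, and the dashed line is an equal change. Most violet points lie along the horizontal line at 0, with medians of -0.11, -0.05 and -0.06.

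A three-way interaction asks whether the triplet differs from what the single ligands and pairs give together on the log2 scale (triplet, minus the 3 pairs, plus the 3 single ligands, minus Ctrl). It was called for 141 genes (2.99%), 124 higher (2.63%) and 17 lower (0.360%). Interferon response genes made up 28 of the 124 (28 of 32 tested, median 2.24). Oas2, an oligoadenylate synthetase gene, shows the shape: it was at 0, 12.5 and 9.60 CPM in Ctrl and at 241, 183 and 219 CPM in the triplet, and every single ligand and pair had already brought it to between 87.3 and 281 CPM, which gave an interaction of 4.14 ± 0.85 (adjusted p = 0.0002316). Rsad2 (1.36, adjusted p = 0.00253), Cmpk2 (1.73) and Ifit3 (2.91) had the same sign. The highest values were those of Phf11a (6.37 ± 1.74), which had no count in Ctrl so that its fitted value depends on the prior count, Ythdf1 (5.25 ± 1.16), Hspa1a (4.71) and Tlr3 (4.39). In Ctrl, Ythdf1 and Hspa1a were at 3.2 ± 5.54 CPM and Tlr3 at 4.16 ± 7.2 CPM (SD, n = 3). These lie below the 13.6 CPM that 3 counts over Ctrl give, so the interactions rest on very few Ctrl counts. Over the settings they ran from 4.63 to 7.9, 2.48 to 8.1 and 3.7 to 7.52. The lowest were those of Trio (-4.02), Fcgrt (-3.56), F630028O10Rik (-3.31) and Arhgap25 (-2.86). Leaving out at least 1 single library ended each of these 8 calls except that of Ythdf1, which was lost with thinned counts (adjusted p = 0.12). Fcgrt was lost under 24 of 33 settings, RLE factors among them, F630028O10Rik under 20 of 33, Trio under 11 of 32 and Arhgap25 under 11 of 34. For Ifnb1 the interaction was -1.21 and was not called (adjusted p = 0.805). The number lower was 9 without Ctrl replicate 1, 11 without Ctrl replicate 2 and 10 without LPS+cGAMP replicate 2. Without triplet replicate 2, the interactions numbered 119 higher and 20 lower, and the differences between the effect on the pair and alone 116 higher and 471 lower for CpGB, 111 and 478 for cGAMP and 215 and 646 for LPS.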

How the data were processed

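RNA of 192 wells of mouse bone marrow-derived dendritic cells was reverse transcribed with template switching, pooled as barcoded cDNA, tagmented and sequenced, per the labels' protocols. The authors deposited 1 table of whole-number UMI counts per gene symbol (23481 genes), without normalization. Reads were aligned with BWA 0.7.15 to mm10, per the submitters' processing notes; the annotation, the UMI collapsing and how reads matching more than 1 gene were handled are not given in the sources used here. Symbols were matched to the GRCm38.p6 gene table, and all 100 named genes matched, 3 by an older symbol.

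The count analysis used edgeR 4.0.16 under R 4.3.3. filterByExpr kept 4720 genes, with 95.7% of all UMIs. A quasi-likelihood model with 1 coefficient per group and TMM factors was fitted to all 192 libraries (64 groups of 3, 128 residual degrees of freedom, common biological coefficient of variation 10.3%), so that the spread is shared over groups. Contrasts were the triplet against each pair, each ligand against Ctrl, the difference of both, and the three-way interaction. A gene above or below all 3 pairs had to pass with its largest of 3 p-values. Called means an adjusted p under 0.05. In counts simulated for CpGB added to LPS+cGAMP (4720 genes), 7 of 4520 unchanged genes were called, 34 of 50 raised 2-fold and 26 of 50 lowered 2-fold. The changed genes were drawn from those at 50 CPM or more in LPS+cGAMP, and all genes had the same fixed dispersion. These shares therefore do not carry over to genes of lower level or of wider spread.

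The text names 12 fixed genes, per comparison the 8 largest called rises and falls at 50 CPM or more without overlap of libraries, genes past all 3 pairs, the 4 highest and lowest interactions and up to 4 called genes per list; Bst2, C1qc, C3, Cfb, Clec4e, Csf1r, Dusp2, Gbp4, Il1a, Lgals3, Malat1, Nfkb2, Oas2 and Saa3 were named after their values were seen. The comparison, the lists and the tests were chosen with earlier results of these data known. Counting intervals cover counting error only. Alternatives were DESeq2 1.42.0 on the 24 libraries, RLE factors, library size alone, no filter, the 24 libraries alone, counts thinned to 1 depth, a replicate block and leaving out replicates. Single calls were checked under them only where named by these rules, 116 calls in all. Other calls, such as those of genes named after their values were seen, were not checked.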

Additional observations from a re-analysis of the deposited data

Results flagged for a closer look

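Within groups of 3 libraries, no outlier test was applied to the single values of a gene. The effect of a ligand differed between the unstimulated cells and the pair of the other ligands, by the interaction test, for 640 genes with CpGB, 616 with cGAMP and 879 with LPS. Genes raised 2-fold or more by the ligand alone and called lower when it was added to the pair numbered 18 for CpGB, among them Cmpk2, Rsad2, Clec4e and Cd14, 14 for cGAMP, among them Serpina3f, Gbp4, Batf2 and Icam1, and 28 for LPS, among them Tnf, Cxcl10, Marco and Ifih1. Serpina3g was in all of these. Lgals3 was the 1 gene lowered by LPS alone and raised by LPS on the pair.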

How the results depend on the processing

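Of the 116 calls named by the rules above, none changed sign under its alternatives, and 23 held under all of theirs. The alternatives numbered 20 to 22 for a call in the 3 additions and 32 to 34 for an interaction. Other calls in the text were not checked in this way. The balance of higher and lower calls did turn with the scaling: from 36 and 41 to 44 and 24 (RLE factors) for CpGB added, from 68 and 76 to 88 and 58 for LPS added, and from 228 and 651 to 518 and 488 (library size alone) for the LPS difference. The 23 calls that held were Ccl3, Dusp1, Ifnb1, Il12b, Sgk1 and Socs3 for CpGB added, Ccl2, Cxcl1, Ifnb1, Oasl1, Tnf, Tnfsf15 and Zfp36l2 for cGAMP added, and Cd40, Cmpk2, Dusp1, Il10, Il12b, Il1rn, Inhba, Marco, Socs3 and U90926 for LPS added. Of the 106 named calls in the 3 additions, thinning every library to the depth of the shallowest lost 74, leaving out replicate 3 of all groups 69, no filter 21, DESeq2 8, library size alone 8, RLE factors 7, and the 24 libraries alone 0. The cause of these losses was not tested.

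With the 24 libraries alone, CpGB had 70 genes higher, LPS 103 higher, cGAMP 92 higher and 56 lower, and 5 genes were above all 3 pairs (Htra4, Ifnb1, Il10, Il1a and Trim25). DESeq2 gave 26 lower for CpGB, 50 lower for LPS, 10 lower interactions, and 2 genes above all pairs (Ifnb1 and Il1a). RLE factors gave 24 lower for CpGB, 385 and 205 higher differences for LPS and cGAMP, and 0 genes below all pairs. Library size alone gave 25 lower for CpGB, 291, 518 and 270 higher differences for CpGB, LPS and cGAMP, and 0 genes below all pairs. No filter gave 27 lower for CpGB, 40 higher and 50 lower for LPS, 51, 67 and 48 higher differences for CpGB, LPS and cGAMP, and 7 lower interactions. With thinned counts CpGB had 19 higher and 12 lower, LPS 17 and 16 and cGAMP 13 and 2; the differences were 60 higher and 265 lower for CpGB, 64 and 357 for LPS and 38 and 261 for cGAMP; the interactions were 52 and 4, and 0 genes were above all pairs. The median of the interferon response list with LPS added was 0.00 under library size alone, with 16 genes above and 16 below 0.

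Leaving out replicates, the counts for CpGB ranged from 20 to 36 higher and 7 to 41 lower, for LPS from 27 to 70 and 16 to 76, and for cGAMP from 21 to 56 and 6 to 32. The differences ranged from 55 to 154 higher and 358 to 489 lower for CpGB, 97 to 217 and 517 to 646 for LPS, and 36 to 123 and 352 to 478 for cGAMP; the interactions from 95 to 142 and 3 to 20; and the genes above or below all pairs from 0 to 1 each.

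Replicate numbers did not pair the libraries: 18 correlations of same-numbered libraries' deviations ran from -0.028 to 0.059, with none over 0.1, beside -0.053 to 0.047 for other numbers. With a replicate block none of the 106 calls was lost (Ifnb1 with LPS added: 1.12, adjusted p = 0.000456).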
